A study of Mus musculus with 28 samples.

Results

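Ribosomal protein genes encode the protein parts of the cytosolic ribosome and of the separate ribosome inside mitochondria. They were taken from the GENCODE M1 annotation of the mouse mm9 genome as protein-coding genes whose symbol starts with Rpl, Rps, Mrpl or Mrps followed by a number and optional letters. Of 22367 protein-coding genes, 167 matched. They were split into 80 cytosolic genes, 76 mitochondrial genes and 11 genes that carry such a symbol but encode no ribosomal protein, namely 10 S6 kinase genes and Rps19bp1, whose product binds Rps19. The last 11 were kept apart, so 156 ribosomal protein genes are described. The rule uses symbols and no measured value, although it was set with earlier results of these data known. The cytosolic set held 8 paralogs of standard members: Rpl3l, Rpl7l1, Rpl10l, Rpl22l1, Rpl36al, Rpl39l, Rps4y2 and Rps27l.

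The cells were IDG-SW3, 1 mouse cell line that was differentiated in culture toward osteocytes, the cells embedded in bone. Per the labels, the line was expanded with interferon gamma and then moved to osteogenic medium without it, and calcified matrix was stripped from differentiated cells before immunoprecipitation. Chromatin immunoprecipitation with sequencing (ChIP-seq) of the vitamin D receptor (VDR) and of its partner, the retinoid X receptor (RXR), was done at day 35 of differentiation in cells given 100 nM 1,25(OH)2D3, the active vitamin D hormone (1,25D3 below), and in vehicle cells. Each of these factors had 2 biological replicates per arm, and the treatment lasted 3 h. A further 9 histone marks were profiled at day 35 and at day 3 with 1 library for each mark and day, so no difference between the days has a replicate check, no p-value is given for one, and a depth or antibody difference between the 2 libraries cannot be told apart from it. The factor lists held between 291 and 10333 peaks, the histone lists held between 9360 and 100123 regions, and the number of reads behind them was not stated, so the precision of a single list is unknown. H3K27Ac regions lay at the start of 9 of 10 osteoblast and osteocyte marker genes at both days, with Fgf23 as the exception. Among these 10, H3K4me3 was missing from the start of Bglap, Mepe, Phex and Fgf23 at both days. H3K4me3 lay at the start of 0 of 8 marker genes of other cell types, although 5 of these 8 had H3K27Ac at day 35 and 3 at day 3.

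Cytosolic ribosomes translate nearly all cellular proteins, and their protein genes are expressed at high and coordinated levels in most cells. The mitochondrial ribosome translates the few respiratory chain proteins encoded in mitochondrial DNA, and its proteins are encoded in the nucleus and imported. Active promoters usually carry H3K4me3 and histone acetylation around the transcription start site, and transcribed gene bodies carry H3K36me3. With hormone, VDR pairs with RXR and binds DNA at a DR3 element, a pair of hexamers of the form RGKTSA in tandem with a short spacer.

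The promoters at which VDR peaks scored highest are printed first. These are the 10 ribosomal protein genes of best mean place in the 4 VDR lists that could be printed, with the sequence around the mean peak centre, 101 bases long or, where it would have run past 50 bases after the start site, shorter. Each is given 5′ to 3′ on the strand of the gene, from the mm9 genome, and capitals mark CTCTAG or CTCTAT on either strand, a motif described further on.
Mrpl12 (chr11:120345887-120345976, plus strand): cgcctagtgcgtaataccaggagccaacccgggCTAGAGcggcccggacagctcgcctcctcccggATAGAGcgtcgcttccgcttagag
Rpl7l1 (chr17:46919598-46919698, minus strand): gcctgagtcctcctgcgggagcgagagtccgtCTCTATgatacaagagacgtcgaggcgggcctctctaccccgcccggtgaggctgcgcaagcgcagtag
Mrps10 (chr17:47505724-47505824, plus strand): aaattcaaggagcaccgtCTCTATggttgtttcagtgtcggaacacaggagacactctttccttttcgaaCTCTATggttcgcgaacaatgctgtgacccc
Rpl10 (chrX:71516060-71516160, plus strand): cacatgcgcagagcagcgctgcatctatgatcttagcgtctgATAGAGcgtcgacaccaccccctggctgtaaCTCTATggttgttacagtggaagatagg
Rps27l (chr9:66793809-66793909, plus strand): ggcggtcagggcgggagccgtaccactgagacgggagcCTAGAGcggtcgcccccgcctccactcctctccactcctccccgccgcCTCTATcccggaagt
Rps3a (chr3:85946599-85946699, minus strand): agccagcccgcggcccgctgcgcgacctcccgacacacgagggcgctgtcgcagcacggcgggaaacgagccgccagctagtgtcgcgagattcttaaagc
Mrps33 (chr6:39760939-39761039, minus strand): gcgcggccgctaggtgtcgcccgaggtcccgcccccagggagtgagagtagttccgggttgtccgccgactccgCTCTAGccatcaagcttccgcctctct
Rpl36 (chr17:56752731-56752831, plus strand): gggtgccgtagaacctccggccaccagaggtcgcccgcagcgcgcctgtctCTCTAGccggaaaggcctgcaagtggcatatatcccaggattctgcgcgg
Mrps2 (chr2:28323510-28323610, plus strand): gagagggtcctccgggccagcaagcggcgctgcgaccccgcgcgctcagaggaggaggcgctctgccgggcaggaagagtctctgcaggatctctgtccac
Rps20 (chr4:3762833-3762933, minus strand): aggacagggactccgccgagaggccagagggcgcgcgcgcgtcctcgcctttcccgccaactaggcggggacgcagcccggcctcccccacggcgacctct
Of these 10 promoters, 7 held the motif and 4 of them held it more than once. Rps3a, Mrps2 and Rps20 held none within the stretch shown.

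VDR was found at the same ribosomal protein promoters with and without hormone. A VDR peak lay within 2 kb of the start site of 19 and 19 ribosomal protein genes in the 1,25D3 libraries, where it lay at 2.22% and 1.99% of all protein-coding genes. In the vehicle libraries it lay at 19 and 21 ribosomal protein genes, where it lay at 1.31% and 1.52% of all genes. The mean was 19 ± 0 genes with 1,25D3 and 20 ± 1.41 with vehicle (SD, n = 2 each), a ratio of 0.951, with p = 1 in an exact two-sided permutation test of the log2 counts whose smallest possible p is 0.33. Over all protein-coding genes the corresponding means were 471 ± 35.4 with 1,25D3 and 316 ± 32.5 with vehicle (SD, n = 2 each), a ratio of 1.49 (p = 0.33 in the exact permutation test, the smallest it can give). The difference between these ratios was not tested. The direction for ribosomal protein genes depended on the lists: the ratio was 1.53 when the top 50% of each list by score was kept and 0.632 when lists were limited to equal length, with exact permutation p = 0.33 for each.

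The 19 genes were the same in all 4 libraries, and they made up 12.2% of the ribosomal protein genes. Across all protein-coding genes, 287 had a VDR peak in all 4 libraries, or 1.28%, and among the 8829 genes with all 6 active marks at their start at both days the share was 3.11%. A site called in both 1,25D3 replicates lay at 19 ribosomal protein genes (1.92% of all genes), and a site called in both vehicle replicates lay at the same 19 (1.27% of all genes). Of the 430 genes with VDR in both 1,25D3 replicates, 106 (24.7%) had no peak in either vehicle library, and 0 of the 19 ribosomal protein genes were among them. As a share of all VDR sites called in both replicates, the ribosomal protein promoters held 19 of 1218 with 1,25D3 (1.56%) and 19 of 283 with vehicle (6.71%).

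**Figure D1:**
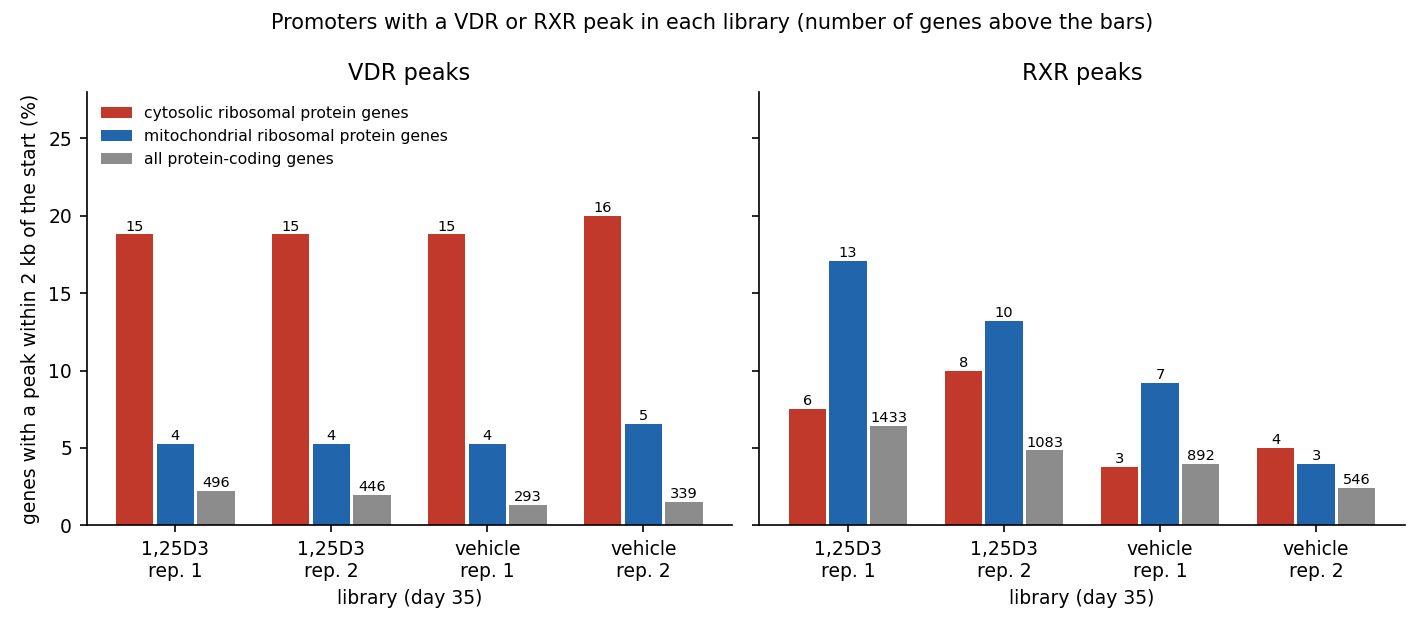
Percent of genes with a VDR peak (left) or an RXR peak (right) within 2 kb of the start site in each library, for cytosolic ribosomal protein genes, mitochondrial ribosomal protein genes and all protein-coding genes; numbers above the bars count genes. VDR was at 15 to 16 cytosolic genes in every library, and RXR was at more mitochondrial than cytosolic genes in 3 of 4 libraries.

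Most of the VDR peaks were at cytosolic genes. In the 1,25D3 libraries 15 and 15 of 80 cytosolic genes had one, against 15 and 16 in vehicle libraries, and 4 and 4 of 76 mitochondrial genes had one with 1,25D3, against 4 and 5 with vehicle. The ratio of 1,25D3 to vehicle was 0.968 for the cytosolic set and 0.894 for the mitochondrial set, with p = 1 for each in the exact permutation test. Peaks in all 4 libraries were thus at 18.8% of the cytosolic and 5.26% of the mitochondrial genes. Limited to genes with all 6 active marks at both days that were up to 5 kb long, the shares were 20% of 60 cytosolic genes and 7.41% of 27 mitochondrial genes, against 4.64% of all 1056 such genes. No ribosomal protein gene of either set had a VDR peak in a 1,25D3 library alone.

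The strongest VDR peaks were at Mrpl12, Rpl7l1 and Mrps10. The peak at Mrpl12 (chr11:120345927-120350379), which encodes a stalk protein of the large mitochondrial subunit, scored 148.3 and 139 in the 1,25D3 libraries and 105.2 and 132.8 in the vehicle libraries. The score is the authors' own value for each peak and its scaling is not stated, so it is read only as a place within a list. By that measure the Mrpl12 peak stood in the top 1.05% and 1.65% of the 1,25D3 lists and in the top 6.19% and 7.89% of the much shorter vehicle lists.

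At Rpl7l1, a paralog of Rpl7, the peak scored 120.1 and 126.9 with 1,25D3 and 88.4 and 153.8 with vehicle. At Mrps10, of the small mitochondrial subunit, it scored 103.2 and 106.1 with 1,25D3 and 74.5 and 146.3 with vehicle. At both genes the second vehicle replicate had the highest score and the first the lowest. Over the 19 genes the scores of the arms overlapped at 15. At the other 4, Mrpl12, Mrps2, Rpl36a and Rps27l, both 1,25D3 scores were above both vehicle scores, but with scaling unstated these scores do not compare the arms. Rpl10, a large-subunit protein that joins the ribosome late in its assembly, and Rps27l, a paralog of Rps27 known as a p53 target, came next, with a mean place in the top 7.15% and 7.99% of the 4 lists.

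The remaining genes ran further down the lists. Mean places in the top 12.5% to 17.6% were held by Rps3a, Mrps33, Rpl36 and Mrps2, and places of 25.3% to 34.3% by Rps14, Rps20 and Rpl36a. Rps15, Rpl5, Rpl13, Rpl32, Rps9 and Rpl11 had mean places between 49.3% and 71.8%. Rpl5 and Rpl11, which bind 5S ribosomal RNA and can hold back Mdm2, had low scores. Rpl5 scored 14.6 and 18.4 with 1,25D3 and 8.2 and 17.6 with vehicle, and Rpl11 scored 9.9 and 9.2 with 1,25D3 and 8.8 and 9.6 with vehicle. Single peaks in the second vehicle replicate alone were listed at Mrpl47 (score 8.8) and Rps4x (score 10.9).

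**Figure D2:**
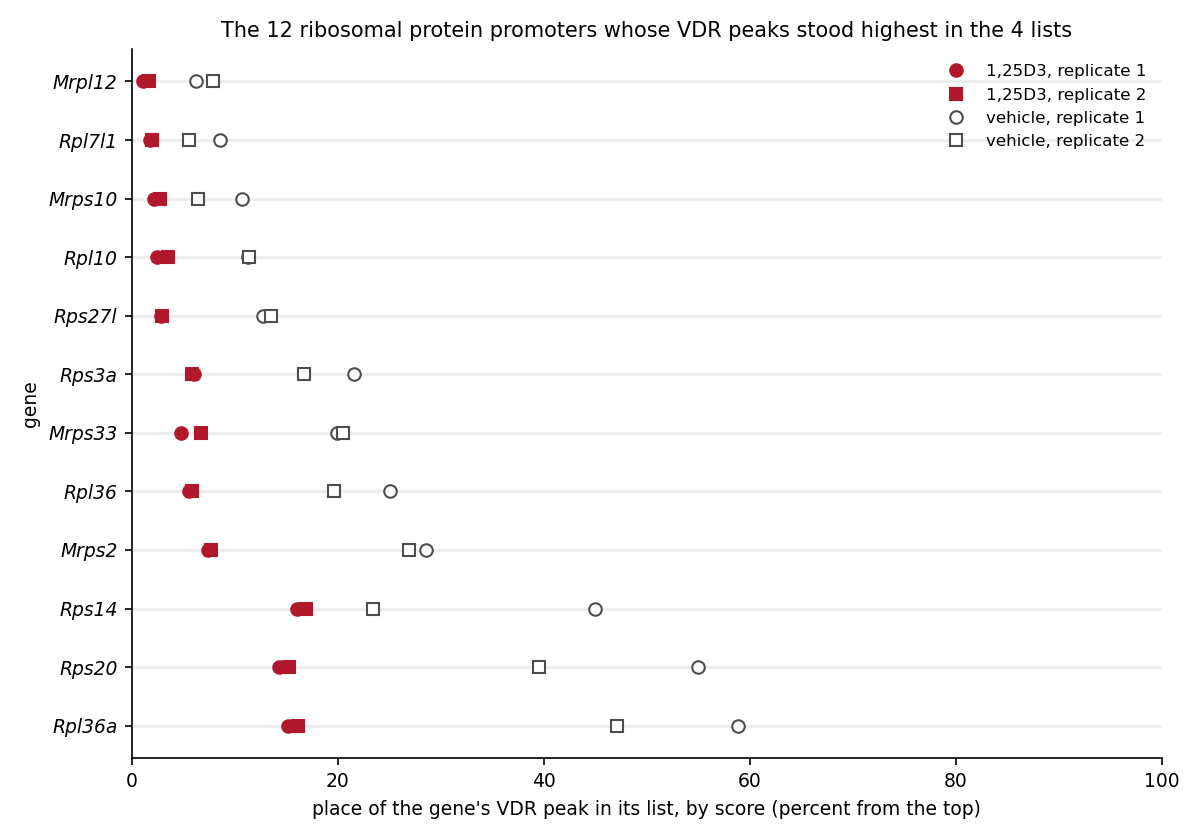
Place of the VDR peak of the 12 ribosomal protein genes of best mean place, in percent from the top of each list by score, with 1 symbol for each of the 4 libraries. Mrpl12 is at 1.05% to 7.89% and Rpl36a at 15.1% to 58.8%; the vehicle lists are shorter, so places do not compare the arms.

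The VDR peaks sat close to the start sites. Over 76 peaks of 19 genes in 4 libraries, the centre lay between 229 bp before and 76 bp after the start, with a median of 48 bp before it. At day 35 H3K4me3 covered a median of 28.1% of the window around the start in the 19 genes and 29.3% in the 135 genes with no VDR peak. H3K27Ac covered 74.5% and 77.8%, H3K4me1 77.1% and 83.4%, and H4K5Ac 78% and 85.1%. Most of the 19 genes were cytosolic. Within the cytosolic set the medians with and without VDR were 28.7% and 31% for H3K4me3 and 76.9% and 83.3% for H3K27Ac. They were 77.1% and 86.3% for H3K4me1 and 78% and 88.5% for H4K5Ac. These differences were not tested. None of the 19 had a divergent partner, which is another protein-coding gene starting within 1 kb upstream on the other strand, against 30 of 135 (22.2%) genes with no VDR peak and 7.22% of all genes. By set this was 0 of 15 cytosolic genes with VDR against 9 of 64 (14.1%) without. For mitochondrial genes it was 0 of 4 against 21 of 71 (29.6%), so the pooled share depends on the mix of sets.

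The letters of a hormone response element were rare at these sites, as they were at promoters in general. A DR3 element with at most 1 mismatch was in 0 of 19 ribosomal protein sites over the central 200 bp and in 18 of 264 (6.82%) vehicle-called sites elsewhere, against 460 of 893 (51.5%) sites called only with 1,25D3. In the longer promoter window it was in 5.4% of all protein-coding genes and 5.19% of ribosomal protein genes with no VDR peak. The 0 of 19 therefore does not set these sites apart from other promoters. The motif CTCTAG was the 6-letter word with the largest excess at the 264 vehicle-called sites elsewhere, of 2076 words counted on both strands: 50.8% of those sites held it, against 9.49% of all promoters in a window of the same length. At the ribosomal protein sites 36.8% held CTCTAG and 42.1% held CTCTAT. Either word was in 11 of 19 (57.9%) ribosomal protein sites, in 167 of 264 (63.3%) vehicle-called sites elsewhere and in 127 of 893 (14.2%) sites called only with 1,25D3. CTCTAT was place 6 by excess and differs from CTCTAG in its last letter alone. Other words also stood high: CGGAAG, place 3, was in 52.7% of vehicle-called sites elsewhere and 47.4% of ribosomal protein sites, against 17% of promoters. For the longer word CCGGAAG the promoter shares were 26.3% of ribosomal protein genes with VDR, 33.3% of those without and 10.9% of all genes. That word was thus no more frequent with VDR than without it, and the split of CGGAAG itself is not given. The 6-letter words were taken up after the data had been seen, and the choice of CTCTAG and CTCTAT was not tested.

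Within the 300 bases of promoter from 250 before to 50 after the start, CTCTAG or CTCTAT was present in 11 of 19 (57.9%) genes with VDR, 23 of 135 (17%) ribosomal protein genes without it, and 22.2% of all protein-coding promoters. The same split held within each set: 8 of 15 cytosolic genes with VDR and 13 of 64 without, and 3 of 4 mitochondrial genes with VDR and 10 of 71 without. The nearest copy lay a median of 11 bp from the site centre at the 11 ribosomal protein sites that had 1 within 150 bp, and 19 bp at 174 sites elsewhere. A match is only a run of letters, and binding to it was not measured.

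**Figure D3:**
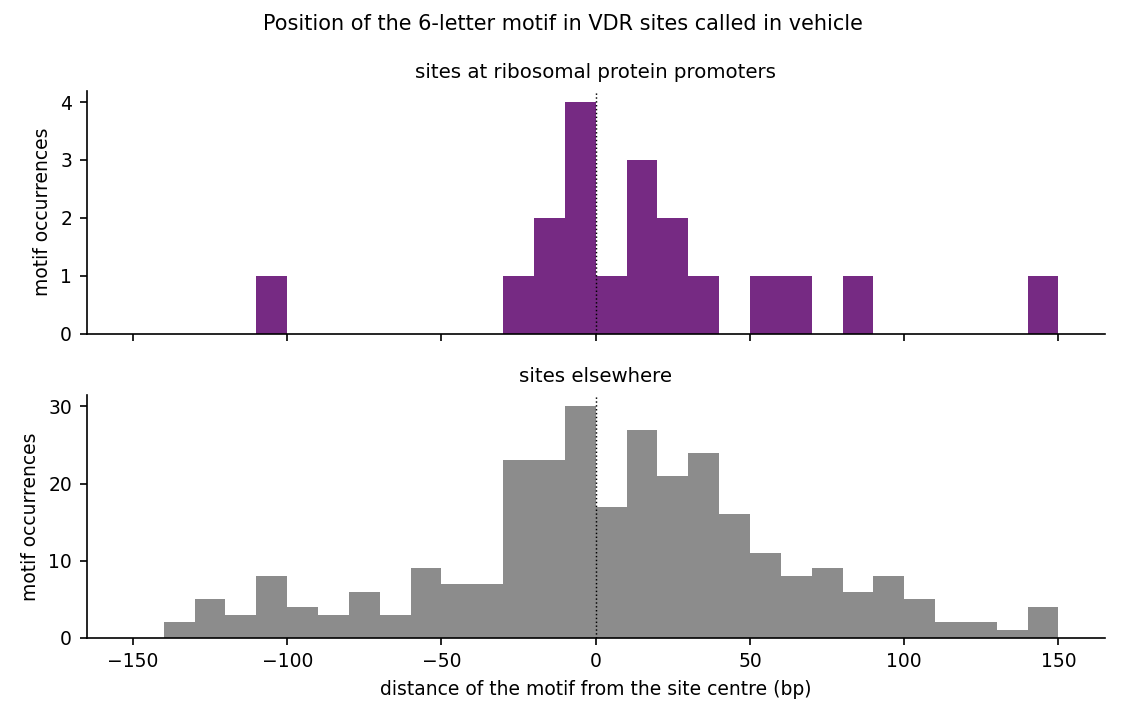
Distance in bp of each copy of the 6-letter motif from the centre of the VDR site that holds it, for vehicle-called sites at ribosomal protein promoters (top) and elsewhere (bottom); bars count copies in steps of 10 bp. The nearest copy was within 50 bp at 10 of 11 sites at ribosomal protein promoters and at 142 of 174 sites elsewhere.

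RXR peaks were called at more ribosomal protein genes with hormone, in lists that were also longer, and more of these genes were mitochondrial. RXR lay at 19 and 18 ribosomal protein promoters in the 1,25D3 libraries (6.41% and 4.84% of all genes) and at 10 and 7 in the vehicle libraries (3.99% and 2.44% of all genes). The means were 18.5 ± 0.707 with 1,25D3 and 8.5 ± 2.12 with vehicle (SD, n = 2 each), a ratio of 2.21 (exact two-sided permutation p = 0.33, the smallest possible). Over all genes the ratio was 1.79, again with p = 0.33 in the exact permutation test. The RXR lists held 10333 and 7635 peaks with 1,25D3 and 6875 and 4093 with vehicle, and with lists limited to equal length the direction turned, to a ratio of 0.463 (exact permutation p = 0.33). With the top 50% of each list by score the ratio was 1.06.

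By set, RXR peaks were at 6 and 8 cytosolic genes with 1,25D3, against 3 and 4 with vehicle, and at 13 and 10 mitochondrial genes with 1,25D3, against 7 and 3 with vehicle. Sites called in both replicates lay at 11 ribosomal protein genes with 1,25D3 (3.94% of all genes had one) and at 4 with vehicle (1.94% of all genes). The 11 comprised 3 of 80 cytosolic genes (3.75%), Rpl10a, Rpl22 and Rps3a, and 8 of 76 mitochondrial genes, Mrpl1, Mrpl16, Mrpl21, Mrpl34, Mrpl39, Mrpl44, Mrps28 and Mrps33. Among genes with all 6 active marks at both days the share over all genes was 7.97%, between the 3.95% of cytosolic and the 11% of mitochondrial genes so marked.

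The RXR peaks of ribosomal protein genes mostly stood low in the 1,25D3 lists and around the middle of the vehicle lists. Their median place was in the top 80% and 77.2% of the 1,25D3 lists and in the top 54.7% and 49.6% of the vehicle lists. Peaks were present in all 4 libraries at Mrpl34, Mrpl44, Mrps28 and Rps3a. Rps3a (chr3:85941862-85946624), a small-subunit protein gene, scored 10.7 and 10.8 with 1,25D3 and 11.3 and 9.6 with vehicle for RXR, and 49.3 and 58.7 with 1,25D3 and 39.8 and 69.6 with vehicle for VDR. It was the ribosomal protein gene with both factors in all 4 libraries. A DR3 element was in 0 of 11 RXR sites at ribosomal protein promoters and in 11% of 6772 RXR sites elsewhere. In the longer promoter window it was in 5.4% of all protein-coding genes, so 0 of 11 is not read as low.

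Cytosolic and mitochondrial promoters held known promoter words at different shares. The word CCGGAAG, which ETS factors are known to bind, was in 27.5% of cytosolic and 36.8% of mitochondrial promoters, against 10.9% of all promoters. AAGATGGC, the core known for YY1, was in 6.25% of cytosolic and 17.1% of mitochondrial promoters, against 3.44% of all. Among genes with H3K4me3 at day 35 the shares over all promoters were 21.4% and 5.82%. Both words were searched on both strands.

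A run of at least 8 pyrimidines within 30 bases of the annotated start, on the strand of the gene, was in 46.2% of cytosolic, 18.4% of mitochondrial and 22.2% of all promoters. Transcripts of cytosolic ribosomal protein genes are known to begin with such a run, through which their translation is controlled. Divergent partners were more frequent at mitochondrial genes, at 27.6%, against 11.2% of cytosolic and 7.22% of all genes. Among all genes with H3K4me3 at day 35 the share was 15.3%, above the cytosolic and below the mitochondrial share. One such pair, Mrpl46 and Mrps11, starts 53 bp apart and shares its regions, so these genes are not independent observations.

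Nearly all start sites of ribosomal protein genes carried marks of active chromatin. All 6 active marks (H3K4me1, H3K4me2, H3K4me3, H3K27Ac, H4K5Ac and H3K9Ac) had a region within 2 kb of the start in 76 of 80 cytosolic genes at day 35 and 76 at day 3, and in 74 and 75 of 76 mitochondrial genes, against 40.5% of all protein-coding genes at day 35 and 45.4% at day 3. Taken 1 by 1, H3K4me1 lay at 154 of the 156 genes at each day (67% and 66.4% of all genes at day 35 and day 3) and H3K4me2 at 153 (63.7% and 59.4%). H3K27Ac lay at 153 and 152 (58% and 59.4%), H4K5Ac at 154 and 153 (60.3% and 59%), and H3K9Ac at 155 and 154 (59% and 58.7%).

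H3K4me3, found at 40.8% of all genes at day 35 and 46% at day 3, was missing at both days from 4 ribosomal protein genes: Rpl3l, Rpl10l, Rps4y2 and Rpl13a. Rpl3l is known as a muscle paralog of Rpl3 and Rpl10l as a testis paralog of Rpl10. The Rpl13a value came from the annotated start of its longest coding transcript, at position 52391601 of chromosome 7; at another annotated start of the same gene, position 52384118, H3K4me3 covered 37.7% of the window at day 35 and 57.9% at day 3.

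Change between the days was read as the percent of a window covered by called regions, with a change counted when it passed 10 percentage points. H3K4me3 at the start covered less at day 35 than at day 3 in 43 cytosolic and 31 mitochondrial genes (53.8% and 40.8%, against 27% of all genes) and more in 0 of either (1.1% of all genes). The median was 30.4% at day 35 and 44.8% at day 3 for cytosolic genes, and 23.3% at day 35 and 34.9% at day 3 for mitochondrial genes. Among genes with all 6 active marks at both days, coverage was lower in 56.6% of cytosolic, 39.7% of mitochondrial and 52.8% of all genes, so the share of ribosomal protein genes was near that of active genes as a whole. Over the body H3K4me3 was lower in 28 of the 156 genes and higher in 0, against 3.76% and 0.34% of all genes. Among genes with all 6 active marks and up to 5 kb long, it was lower over the body in 36.7% of cytosolic, 18.5% of mitochondrial and 34% of all genes.

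The largest difference was at Rpl18, a large-subunit protein gene. Rpl18 had 0.8% of its window covered at day 35 and 66.7% at day 3, while its H3K27Ac covered 100% at day 35 and 90.4% at day 3. Among mitochondrial genes, Mrps2 had 15.6% at day 35 and 68.6% at day 3, Mrpl36 had 16.2% and 68.2%, and Mrpl54 had 16.2% and 64.2%. Rpl3, a large-subunit protein at the peptidyl transferase centre, had 29.3% at day 35 and 60.8% at day 3. Rps28, with 52.5% at day 35 and 47.4% at day 3, and Mrpl1, with 40.1% and 33.9%, had the largest increases of their sets, and both stayed within 10 points. Rps19, a small-subunit protein mutated in human Diamond-Blackfan anaemia, had 36.1% at day 35 and 50% at day 3, and Rps6, the substrate of the S6 kinases, 48.5% and 61.6%.

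**Figure D4:**
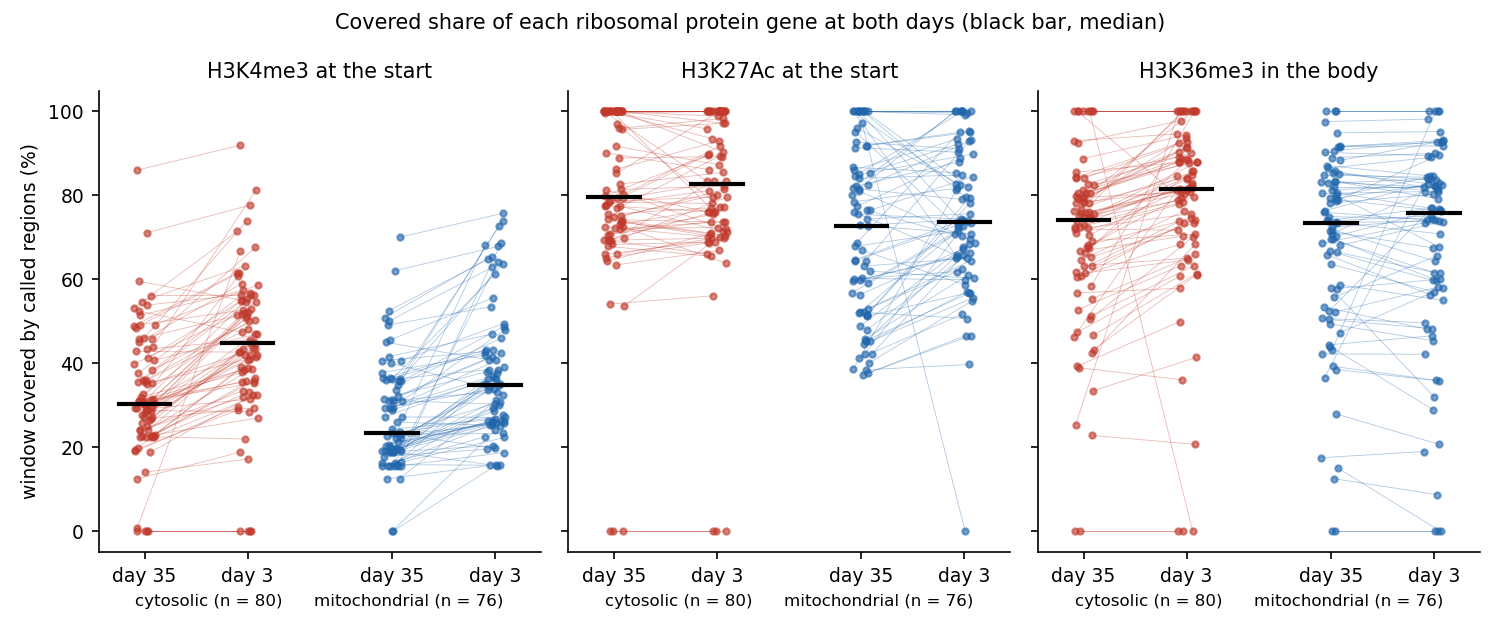
Percent of the window covered by called regions for each of the 80 cytosolic and 76 mitochondrial ribosomal protein genes at day 35 and day 3, with H3K4me3 and H3K27Ac at the start and H3K36me3 over the gene; lines join a gene and black bars are medians. H3K4me3 medians are 30.4% at day 35 and 44.8% at day 3 for cytosolic genes, and H3K36me3 medians are 74.3% and 81.6%.

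H3K4me2 went in the opposite direction. Its coverage at the start was higher at day 35 in 21 cytosolic (26.2%) and 43 mitochondrial genes (56.6%), against 25.3% of all genes, and lower in 0 of either (1.57% of all genes). Medians were 79.1% at day 35 and 71.7% at day 3 for cytosolic genes and 72.3% at day 35 and 59.5% at day 3 for mitochondrial genes. Among genes with all 6 active marks at both days, coverage was higher in 27.6% of cytosolic, 54.8% of mitochondrial and 32.4% of all genes. Within 1 kb of the start it was higher in 11 cytosolic and 9 mitochondrial genes and lower in 1 and 2. The mitochondrial set had no excess over the cytosolic set there, and the share over all genes was not taken. Over the body H3K4me2 was higher in 37 cytosolic and 15 mitochondrial genes, against 10.9% of all genes, and lower in 1 gene, against 0.863%. Genes with all 6 active marks that were up to 5 kb long were also read. There it was higher over the body in 55% of cytosolic, 37% of mitochondrial and 33.8% of all genes, so the mitochondrial share was near the last.

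H3K4me1 is a mark that also spreads over enhancers. At the start it was higher in 5 of the 156 genes and lower in 18, against 7.61% and 13.8% of all genes. Over the body it was higher in 12 and lower in 9, against 9.02% and 9.41%.

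H3K27Ac at the start was lower mostly in mitochondrial genes. It was lower at day 35 in 6 cytosolic genes (7.5%) and 27 mitochondrial genes (35.5%), against 16.5% of all genes, and higher in 3 cytosolic (3.75%) and 10 mitochondrial genes (13.2%), against 7.99% of all genes. Among genes with all 6 active marks at both days it was lower in 6.58% of cytosolic, 37% of mitochondrial and 22.6% of all genes; among those up to 5 kb long the shares were 6.67%, 18.5% and 13.8%, and there 5 of 27 mitochondrial genes were lower and 5 higher, with a median change of 0. Within 1 kb of the start H3K27Ac was lower in 12 mitochondrial genes and higher in 3, and lower in 5 cytosolic genes and higher in 0. The share over all genes was not taken in this narrower window. Of mitochondrial large-subunit genes, Mrpl22 had 38.6% covered at day 35 and 81.2% at day 3, and Mrpl16 had 64.4% and 92.9%. Mrpl38 had 97.2% covered at day 35 and 0% at day 3, when H4K5Ac covered 72.5% and H3K9Ac 42.9% of the same window. Of cytosolic genes, Rpl31 had 100% covered at day 35 and 76% at day 3, and Rpl5 had 53.6% and 71.4%.

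The other acetyl marks were more evenly split. H4K5Ac at the start was higher in 17 and lower in 18 of the 156 genes, against 11.2% and 11.3% of all genes, and H3K9Ac was higher in 24 and lower in 20, against 9.17% and 12%. Over the body H4K5Ac was higher in 24 and lower in 13, against 12.5% and 7.15% of all genes. Over the gene bodies H3K9Ac was higher at day 35 in 39 genes and lower in 7, against 7.73% and 4.49% of all genes, and H3K27Ac was higher in 38 and lower in 11, against 16.4% and 6.73%. With all 6 active marks at both days, body H3K27Ac was higher in 22.4% of cytosolic, 27.4% of mitochondrial and 30% of all genes. Among those up to 5 kb long the shares were 21.7%, 25.9% and 16.6%. For body H3K9Ac the shares were 28.9%, 21.9% and 13.2%, and up to 5 kb long 26.7%, 25.9% and 15.3%. The median cytosolic gene was 3.23 kb long and the median mitochondrial gene 7.73 kb, against 15.4 kb for all genes, so the window around a start covers much of a cytosolic gene and the body and start values of these genes overlap.

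**Figure D5:**
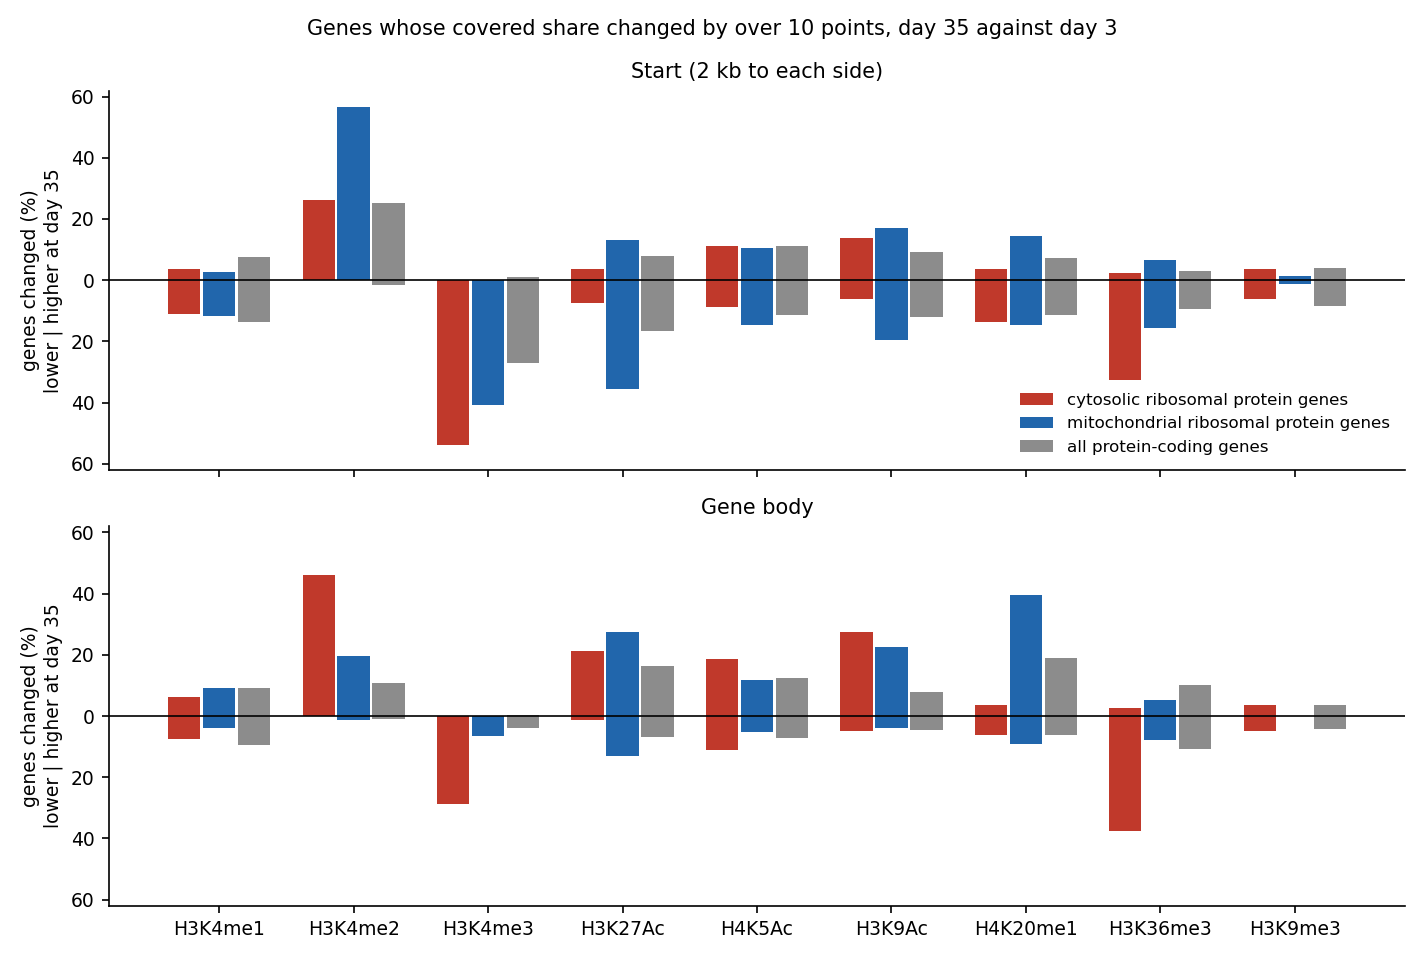
Percent of genes whose covered share was higher (up) or lower (down) at day 35 than at day 3 by over 10 points, for 9 histone marks at the start (top) and over the gene body (bottom), in cytosolic, mitochondrial and all protein-coding genes. H3K36me3 over the body was lower in 37.5% of cytosolic genes and 7.89% of mitochondrial genes; H4K20me1 over the body was higher in 39.5% of mitochondrial and 3.75% of cytosolic genes.

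Marks of transcribed bodies also differed between the sets. H3K36me3 over the body was lower at day 35 in 30 cytosolic (37.5%) and 6 mitochondrial genes (7.89%), against 10.8% of all genes, and higher in 2 and 4, against 10.3% of all. Medians were 74.3% at day 35 and 81.6% at day 3 in the cytosolic set and 73.6% at day 35 and 75.7% at day 3 in the mitochondrial set. Among genes with all 6 active marks that were up to 5 kb long, it was lower in 45% of cytosolic, 11.1% of mitochondrial and 24.4% of all genes. The difference between the sets was not seen beyond 2 kb of the start, where H3K36me3 was lower in 1 of 42 cytosolic and 4 of 64 mitochondrial genes long enough to be read there. For that stretch the share over all genes was not taken.

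Single genes spanned a wide range of H3K36me3. Rpl36al had 25.4% of its body covered at day 35 and 100% at day 3, Rps9 had 58.5% and 100%, and Mrpl43 had 43.2% and 100%. Mrpl11 had 57.9% at day 35 and 32% at day 3. Rps4y2, a paralog of Rps4x whose gene is 0.943 kb long, had 100% at day 35 and 0% at day 3 with no H3K4me3 at either day. H3K36me3 also reached the start window of most cytosolic genes, 95% at day 35 and 96.2% at day 3, against 75% and 77.6% of mitochondrial genes and 24.2% and 29.2% of all genes. These shares were also taken among genes with all 6 active marks that were up to 5 kb long. At day 35 they were 100% of cytosolic, 100% of mitochondrial and 77.9% of all such genes. At day 3 they were 100%, 96.3% and 79.4%, so the sets did not differ much there. In the start window H3K36me3 was lower at day 35 in 26 cytosolic and 12 mitochondrial genes and higher in 2 and 5, against 9.38% and 3.1% of all genes. Among the same short genes it was lower in 30% of cytosolic, 11.1% of mitochondrial and 21.1% of all.

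H4K20me1 over the body was higher at day 35 in 30 mitochondrial genes (39.5%) and 3 cytosolic genes (3.75%), against 19% of all genes. Genes with all 6 active marks at both days had it higher in 38.8%, so the mitochondrial share lay near that of active genes and the cytosolic share below it. Cytosolic bodies were already covered to a median of 98% at day 3, with 94.8% at day 35, so that most of them could not gain 10 points. Mitochondrial bodies had medians of 56.5% at day 35 and 35.2% at day 3. Mrps14, of the small mitochondrial subunit, had 95.5% at day 35 and 18.2% at day 3, and Mrpl55 had 60.3% and 0%. H4K20me1 over the body was lower in 12 of the 156 genes, against 6.26% of all. At the start, where it lay at 147 genes at each day (44.8% and 46.4% of all genes), it was higher in 14 and lower in 22, against 7.35% and 11.3%.

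H3K9me3, a mark of silenced chromatin, was nearly absent, at the start of 4 of the 156 genes at day 35 and 7 at day 3, against 8.49% and 11.8% of all genes. Of 4 ribosomal protein genes on the X chromosome, 3 had more at day 35: Rps4x with 39.9% at day 35 and 0% at day 3, Rpl10 with 39.3% and 12.5%, and Rpl39 with 20.7% and 0%. Coverage was higher by over 10 points at 315 of 932 (33.8%) X-linked genes. On autosomes it was higher at 1 of 152 ribosomal protein genes, Mrpl19, with 15.9% at day 35 and 0% at day 3, and lower at 6. Over all genes it was higher at 3.95% and lower at 8.57%; over the body, 3 ribosomal protein genes had more and 4 less, against 3.58% and 4.1% of all genes. Active marks were present at these genes too, with H3K27Ac over 100% of the Rpl10 window and 64.3% of the Rps4x window at day 35. The largest difference downward was at Mrps28, with 0% at day 35 and 34.9% at day 3.

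The kinases and Rps19bp1 were less uniform than the ribosomal protein genes. All 6 active marks were at 8 of the 11 at day 35 and 7 at day 3, against 40.5% and 45.4% of all genes. Rps6ka1, Rps6ka6 and Rps6kl1 had no H3K4me3 at their start at either day. Rps6kb1, the main kinase of Rps6, had H3K4me3 over 51.1% of the window at day 35 and 52.6% at day 3. VDR was at 0 of the 11 (1.31% to 2.22% of all genes in single libraries), and RXR at Rps6kc1 in the first 1,25D3 library alone (6.41% of all genes there).

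Genes that make or use ribosomes were read from lists beside the members. VDR sites called in both 1,25D3 replicates were at 2 of 14 ribosomal proteins that the symbol rule leaves out, Gnb2l1 and Rplp0 (1.92% of all genes), with 0 of 14 in vehicle (1.27% of all genes); at 0 of 20 ribosome biogenesis genes in either arm; at 2 of 13 cytosolic translation factors, Eif2s1 and Pabpc1, with Eif2s1 alone in vehicle; and at 2 of 12 mitochondrial translation and transcription genes, Tfb2m and Tufm, in both arms. RXR sites called in both 1,25D3 replicates were at 5 of the 13 translation factors, namely Eef1b2, Eef2, Eif4e, Eif4g1 and Pabpc1, and the same 5 had them in vehicle. They were at 3 of 20 biogenesis genes, Nolc1, Polr1a and Rrn3, with 1,25D3 and at 0 with vehicle, and at 2 of 14 left-out ribosomal proteins, Chchd1 and Ptcd3, with 1,25D3 and at Chchd1 alone with vehicle. None of the 12 mitochondrial translation and transcription genes had one in either arm. Over all genes the RXR shares were 3.94% with 1,25D3 and 1.94% with vehicle. H3K4me3 at the start was lower at day 35 in 7 of 14 left-out ribosomal proteins, 10 of 20 biogenesis genes, 7 of 13 translation factors and 2 of 12 mitochondrial translation and transcription genes, against 27% of all genes, and higher in 0 of each list.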

How the data were processed

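ChIP-seq regions of 26 of the 28 samples were used; the input samples were not used here. Per the submitters' processing notes, Bowtie and HOMER were the tools and mm9 the build; versions and settings were not stated. Each deposited list was called per library by the authors and gives chromosome, start, end and a score, the authors' own peak score of unstated scaling, used here to rank and filter regions within a list. Groups came from the labels, which call the factor libraries biological replicates. Whether they are separate cultures was not stated, so the spread may be technical. Names of the second replicates carry an index tag that those of the first lack.

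Genes and start sites came from GENCODE M1 on the same build. The start was that of the protein-coding transcript with the longest coding sequence, the window 2 kb to either side, the body the whole gene, and the value the percent of bases covered by regions. A difference counted when over 10 points. A site called in both replicates was a pair of peaks overlapping by at least 1 bp. For each factor, the log2 numbers of promoters with a peak were set against each other by an exact permutation of the 4 libraries, two-sided. The members and lists were chosen with earlier results of these data known. The backgrounds of actively marked genes and of genes up to 5 kb, and the 6-letter words, were chosen after seeing the data. Genes were named by rule: sites of either factor in both replicates, the 3 largest changes per set and direction of H3K27Ac, H3K4me3 and H3K36me3, no H3K4me3 at either day, paralogs and non-ribosomal matches, and 12 genes of known interest; others named for H3K9me3 and H4K20me1 were chosen after their values were seen. Alternatives changed the window, start, score filter, list length, overlap, threshold and replicates. Coverage and peak lookup were tested against base-by-base and all-pairs counts. Python 3.11.15, numpy 2.4.6, pandas 2.3.3, pysam 0.24.0 and matplotlib 3.10.9 were used.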

Additional observations from a re-analysis of the deposited data

How the results depend on the processing

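Of the factor results, the VDR ratio of 1,25D3 to vehicle reversed to 1.53 with the top 50% of each list by score, and the RXR ratio reversed to 0.463 with lists limited to equal length; the cause was not tested. Leaving out 1 library gave VDR ratios of 0.905 to 1 and RXR ratios of 1.85 to 2.64, with 1 for VDR without the second vehicle replicate. With the replicate block the ratios were 0.951 (VDR, p = 1) and 2.21 (RXR, p = 0.5) by exact sign flips, whose smallest p is 0.5; deviations of same-numbered libraries correlated at 0.307 over 281 VDR sites and 0.182 over 3429 RXR sites, but the samples share only a number. Single replicates gave RXR sites at 18 to 19 ribosomal protein genes with 1,25D3 and 7 to 10 with vehicle. The top 50% of lists left VDR sites in both vehicle replicates at 10 genes, and RXR sites at 3 genes with 1,25D3 and 2 with vehicle.

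Counts of genes with changed coverage moved with the threshold. At over 20 points, start windows had 12 (H3K4me1), 18 (H3K4me2), 21 (H3K4me3), 15 (H3K27Ac), 7 (H4K5Ac), 18 (H3K9Ac), 21 (H4K20me1), 11 (H3K36me3) and 4 (H3K9me3), and bodies had 11, 21, 13, 26, 21, 23, 23 and 13 for the first 8 of these marks. Within 1 kb of the start the counts were 15 (H3K4me1), 23 (H3K4me2), 20 (H3K27Ac), 3 (H4K5Ac) and 16 (H3K9Ac). Beyond 2 kb of it they were 32 (H3K4me2), 0 (H3K4me3), 10 (H3K36me3) and 2 (H3K9me3) of 106 genes. With the top 50% by score, H3K9me3 had 5 at the start and 4 over the body. The other counts over all ribosomal protein genes stayed within 1.5 times the reported ones. Counts split by set and direction were less steady: 442 stayed within 1.5 times and 152 did not, such as mitochondrial H3K36me3 at the start, lower in 5 genes within 1 kb and 12 within 2 kb, and mitochondrial H3K4me3 over the body, lower in 12 with the top 50% by score and in 5 with whole lists. In addition, the ratios not given as reversed kept their direction, between 0.632 and 0.953 for VDR and between 1.06 and 2.21 for RXR apart from left-out libraries. With 1 library per mark and day, depth and day cannot be told apart.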

Other observations

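The annotation also holds 101 processed copies of ribosomal protein genes, which are pseudogenes left by retrotransposed messages and named with the suffix -ps. H3K4me3 regions lay within 2 kb of the start of 1 copy at day 35 and 3 at day 3 (40.8% and 46% of all protein-coding genes). They lay over the body of 0 at either day (41.7% and 47.7% of all genes). H3K27Ac lay near the start of 22 copies at day 35 and 21 at day 3 (58% and 59.4% of all genes). It lay over the body of 4 at each day (64% and 65.1% of all genes). H3K36me3 covered part of the body of 10 copies at day 35 and 11 at day 3. No share over all genes is given beside this count, so it is not read as high or low. H3K9me3 lay near the start of 27 copies at day 35 and 17 at day 3 (8.49% and 11.8% of all genes). Regions at a copy can belong to the gene it sits in, and reads from a copy and its parent can be hard to place; neither was tested.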
